A study of Homo sapiens with 2 samples.

Results

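The Wnt ligand genes, the Frizzled receptor genes and 11 further core genes of the pathway were described in HCT-116 cells with and without lysophosphatidic acid (LPA). HCT-116 is an established human colorectal carcinoma line, known to carry an activating CTNNB1 mutation. LPA is a phospholipid that acts on G protein-coupled receptors. The members were chosen by symbol alone: every WNT gene and every FZD gene, the coreceptors LRP5 and LRP6, the secretion genes PORCN and WLS, the 3 DVL genes, and CTNNB1, APC, AXIN1 and GSK3B. This gave 40 of the 26260 gene symbols in the deposited table, and 74 of its 63236 isoforms. The comparison is of 1 library of untreated cells with 1 library of cells that had been serum starved and given 10 µM LPA for 24 h. Whether the untreated cells were also starved is not given in the sources used here. Poly-A RNA of whole cultures was sequenced, in which a lower level in every cell and fewer cells with the transcript cannot be told apart. With 1 library a group no difference below has a replicate check or a p-value, and LPA, starvation, culture and library cannot be told apart.

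Wnt proteins are secreted, lipid-modified signals. PORCN, a membrane acyltransferase, attaches the lipid, and WLS carries the ligand to the cell surface. There it binds a Frizzled receptor together with LRP5 or LRP6, and Dishevelled proteins (DVL1, DVL2 and DVL3) relay the signal. Without a signal, APC, AXIN1 and the kinase GSK3B form part of a complex that marks beta-catenin (CTNNB1) for destruction. In the intestine this pathway maintains the stem cells of the crypt, and its activation is a common step in colorectal cancer.

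WNT16 was the most abundant ligand transcript in both libraries and had the largest difference of all members, at 29.7 FPKM in untreated cells and 15.7 FPKM with LPA. FPKM is an estimate of fragments corrected for the length of the transcript and the size of the library, so levels of different genes can be set side by side. Of the 8 Frizzled genes with a mean of at least 1 FPKM, 6 were lower in the LPA library, led by FZD6, FZD1, FZD7 and FZD2. Of all genes at that level 49.8% were lower, and the differences of FZD5 and FZD9 did not exceed counting error. Nor did those of the other ligands at that level, LRP5, DVL1, DVL3, AXIN1 and APC. LRP6 was 17.8% higher, while DVL2 was 12.6%, GSK3B 10.5% and CTNNB1 itself 16.05% lower. The splits of APC and FZD6 among their isoforms also differed between the libraries.

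The isoforms behind those results are distinguished by short stretches of sequence. WNT16 has 2 isoforms in the table that start from different first exons and share the rest of the coding sequence. The coding bases found in the first exon of only 1 of them are shown because the lower WNT16 level was mostly in NM_057168. They are from GENCODE release 29 transcripts (GRCh38), plus strand, with the start codon in capitals. The stretch of NM_057168 is chr7:121329293-121329387 and that of NM_016087 is chr7:121325416-121325480.
WNT16 NM_057168: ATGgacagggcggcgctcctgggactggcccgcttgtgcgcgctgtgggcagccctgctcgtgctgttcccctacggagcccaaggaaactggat
WNT16 NM_016087: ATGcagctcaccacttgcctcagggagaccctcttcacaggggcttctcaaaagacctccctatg

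The corresponding stretches of 2 APC isoforms are shown because each library's APC estimate rested on a different one. For NM_000038 it lies in exon 2, at chr5:112754891-112755025, and for NM_001127511 in exon 1, at chr5:112707718-112707882, on the plus strand of the same build.
APC NM_000038: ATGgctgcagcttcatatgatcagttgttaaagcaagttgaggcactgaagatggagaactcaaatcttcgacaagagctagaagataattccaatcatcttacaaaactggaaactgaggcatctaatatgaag
APC NM_001127511: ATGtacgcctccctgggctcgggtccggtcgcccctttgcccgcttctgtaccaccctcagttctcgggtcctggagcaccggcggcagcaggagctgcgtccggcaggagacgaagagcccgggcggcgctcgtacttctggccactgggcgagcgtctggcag

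**Figure D1:**
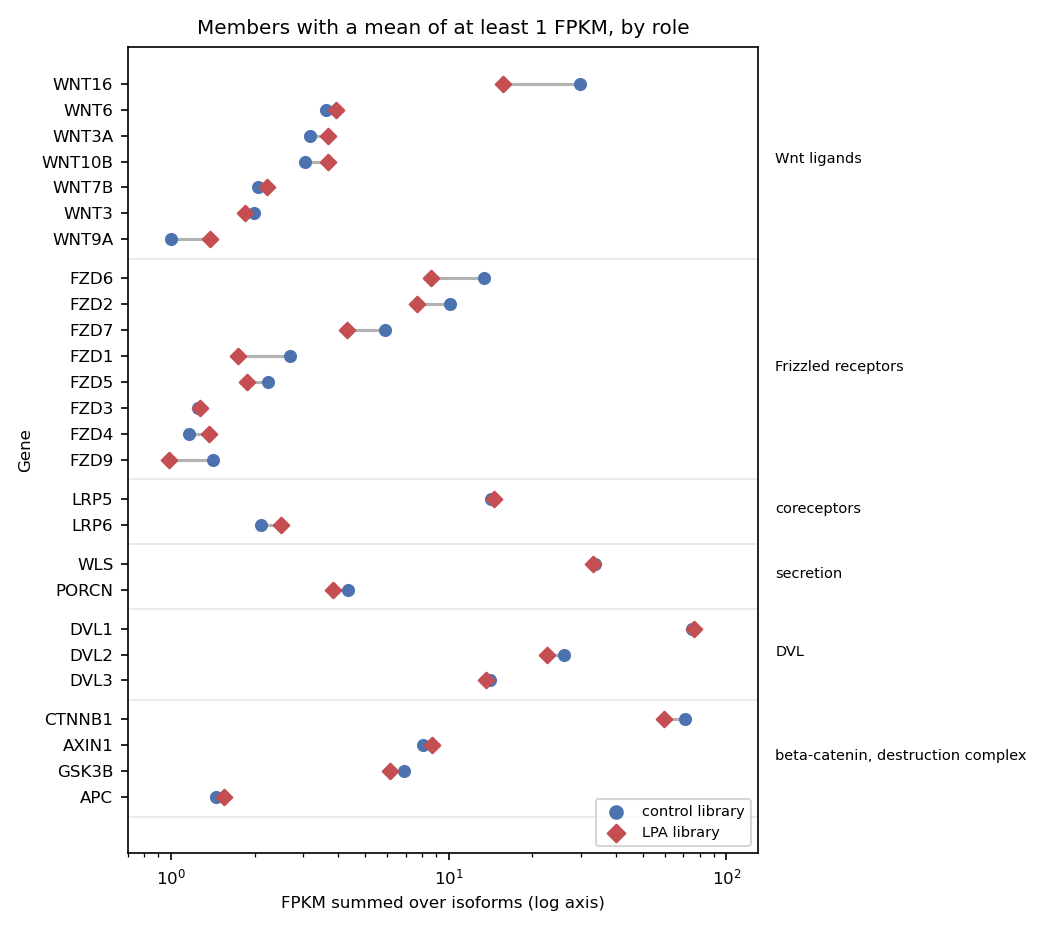
FPKM summed over isoforms, on a log axis, for the 26 members with a mean of at least 1 FPKM, grouped by role. Circles are the control library and diamonds the LPA library, 1 library each. WNT16 (29.7 and 15.7 FPKM) and FZD6 (13.4 and 8.65 FPKM) have the widest gaps, while DVL1 and WLS nearly coincide.

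Of the 40 members, 26 had a mean over both libraries of at least 1 FPKM, and these were compared on the scale log2((LPA FPKM + 1)/(control FPKM + 1)), called the log2 ratio here. Adding 1 understates differences of genes with low FPKM. No member was at least 2-fold apart on this scale, where 0.556% of the 11686 genes tested were. WNT16 was the 1 member at least 1.5-fold apart, and it was lower. Among all genes tested 2.99% were at least 1.5-fold apart, and 1.54% were so in the lower direction. Of the 26 members, 14 had a log2 ratio below 0 against 49.8% of all genes tested, and their median was -0.03 against 0.00 over all genes. With a mean of at least 5 FPKM required, 12 members were left and their median was -0.16, against 0.01 over the 7760 genes left. At an estimated 16700000 fragments for the control library and 15700000 for the LPA library, 1 FPKM on a transcript of 2 kb corresponds to about 33.5 and 31.5 fragments. The intervals given below are 95% exact binomial (Clopper-Pearson) intervals on such estimated fragments, for log2 of the plain FPKM ratio, and cover counting error only. The share of all genes tested whose interval excludes 0 is not given here. An interval that excludes 0 therefore does not set a member apart from other genes.

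Of the 19 ligand genes, 7 had a mean of at least 1 FPKM. WNT16, known as a ligand in skin and bone, lies on chromosome 7 (121325367 to 121341104, hg38). Its 29.7 and 15.7 FPKM correspond to about 1523 and 754 fragments. The log2 ratio was -0.88, and 0.274% of all genes tested had a lower one. The log2 of the plain ratio was -0.92, with a counting interval of -1.05 to -0.80. WNT16 made up 62.3% of the summed ligand FPKM in untreated cells and 45.0% in the LPA library. The other 18 ligand genes together had 18.0 FPKM in untreated cells and 19.2 FPKM with LPA, so the lower ligand sum lay in WNT16.

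Both WNT16 isoforms were lower in the LPA library. NM_057168 had 23.3 FPKM in the control, with deposited bounds of 16.1 to 30.5, and 11.6 FPKM with LPA, with bounds of 7.88 to 15.4. These bounds come from the authors' software, their level is not stated in the file, and they hold no replicate error. They do not overlap for NM_057168. NM_016087 had 6.43 FPKM (2.45 to 10.4) and 4.06 FPKM (1.68 to 6.44), and its bounds overlap. NM_057168 held 78.4% of WNT16 FPKM in untreated cells and 74.1% in the LPA library, so the split between the first exons shown above was similar in both libraries. In the GENCODE model the first exon of NM_057168 is 385 nt and that of NM_016087 is 114 nt. At the estimated levels about 150 and 70.5 fragments would fall in the former and 12.3 and 7.28 in the latter, so the level of NM_016087 rests on less data.

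After WNT16 the highest ligand values were those of WNT6, WNT3A and WNT10B, and these were close to each other. WNT6 had 3.61 FPKM in untreated cells and 3.94 FPKM with LPA, WNT3A, a classical activator of beta-catenin signalling, 3.16 and 3.67 FPKM, and WNT10B, also linked to that branch, 3.03 and 3.69 FPKM. Their deposited bounds overlap one another in both libraries, so no order among them is given. WNT7B had 2.06 and 2.22 FPKM, WNT3, a Wnt of the intestinal crypt, 2.0 and 1.84 FPKM, and WNT9A 1.00 and 1.38 FPKM. In both libraries the bounds of WNT7B and WNT3 overlap each other and those of WNT6, WNT3A, WNT10B and WNT9A. WNT7B and WNT3 are therefore not ordered either. Apart from WNT16 and WNT3, these ligands were higher in the LPA library, with log2 ratios of 0.07 (WNT7B) to 0.25 (WNT9A). Every counting interval among these 6 includes 0, for example -0.08 to 0.65 for WNT10B and -0.43 to 1.35 for WNT9A, so none of these differences exceeded counting error.

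**Figure D2:**
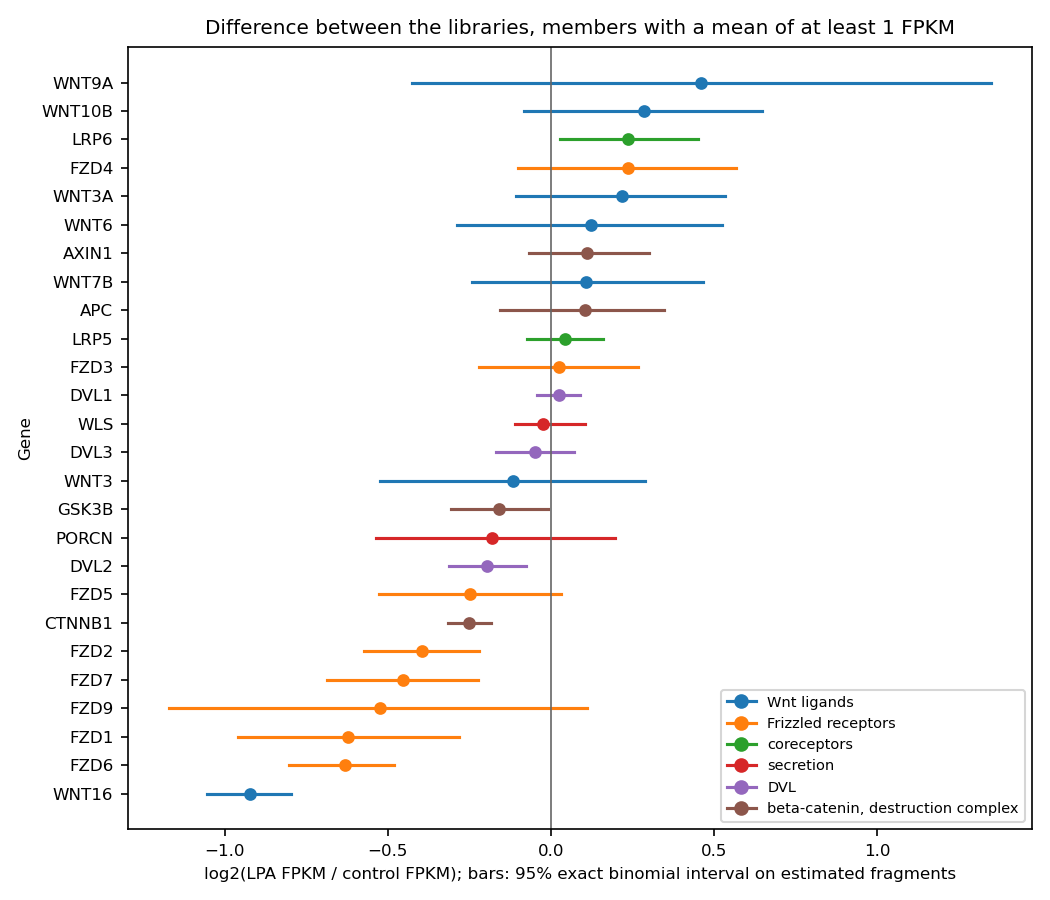
Log2 of the plain FPKM ratio, LPA over control, for the 26 members with a mean of at least 1 FPKM, coloured by role. Bars are 95% exact binomial intervals on estimated fragments and cover counting error only. WNT16 (-0.92) is lowest, followed by 5 Frizzled genes, and the ligands at the top have wide intervals that include 0.

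Frizzled proteins are receptors with 7 membrane passes that bind Wnt through a cysteine-rich outer domain. FZD6, which is linked to planar polarity rather than beta-catenin, had the highest FPKM in both libraries, with 13.4 FPKM in untreated cells and 8.65 FPKM with LPA. The deposited bounds are per isoform, and FZD2 was near it with LPA, at 7.69 FPKM, so FZD6 and FZD2 are not ordered. FZD6 was 35.5% lower, with a log2 ratio of -0.58, just inside the 1.5-fold limit, and 1.57% of all genes tested had a lower one. With a pseudocount of 0.1 in place of 1, or with the leading isoform taken for the gene, FZD6 passed that limit. The counting interval of its plain log2 ratio was -0.80 to -0.48. An antisense gene, BAALC-AS1 (0.438 and 0.0950 FPKM), overlaps a FZD6 exon by 138 nt, and the library kit does not mark strand, so reads there cannot be assigned to either.

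FZD1, FZD2 and FZD7 form the closest subgroup of the family by sequence and are linked to beta-catenin signalling. All of them were lower in the LPA library. FZD2 had 10.1 FPKM in untreated cells and 7.69 FPKM with LPA, FZD7 had 5.88 and 4.30 FPKM, and FZD1 had 2.69 and 1.75 FPKM. Their log2 ratios were -0.36, -0.38 and -0.42. The deposited bounds of FZD2 and FZD7 overlap each other in both libraries, so these genes are not ordered by level. FZD1 had a lower level than both in each library, with separate bounds. Counting intervals of the plain log2 ratio were -0.57 to -0.22 for FZD2, -0.69 to -0.22 for FZD7 and -0.96 to -0.28 for FZD1. Each gene has 1 isoform in the table, and the deposited bounds of all 3 overlap between the libraries (for FZD2, 7.17 to 13.1 and 5.38 to 10.0). Of all genes tested, 8.18%, 7.04% and 5.04% had a lower log2 ratio than FZD2, FZD7 and FZD1 respectively.

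The remaining receptors were near 1 or 2 FPKM. FZD5, a receptor of the intestinal epithelium, had 2.23 FPKM in untreated cells and 1.88 FPKM with LPA, and FZD9 had 1.41 and 0.982 FPKM. Both were lower, but their counting intervals of -0.53 to 0.03 and -1.17 to 0.11 include 0. FZD3 had 1.26 and 1.28 FPKM and FZD4, a receptor of the vasculature that also binds norrin, 1.16 and 1.37 FPKM. A PRSS23 exon on the opposite strand overlaps FZD4 by 1255 nt, and PRSS23 had 0.892 and 1.14 FPKM, so the FZD4 value is uncertain. FZD8 was at 0.371 and 0.345 FPKM, and FZD10 was at 0 in each library by the table, where a listed 0 can also be a failed estimate. Summed over the 10 genes, receptor FPKM was 38.5 in untreated cells and 28.2 with LPA. FZD6 held 34.8% and 30.6% of these sums and FZD2 26.3% and 27.2%. FZD6, FZD2 and FZD7 had the highest FPKM in both libraries, while the total was lower.

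**Figure D3:**
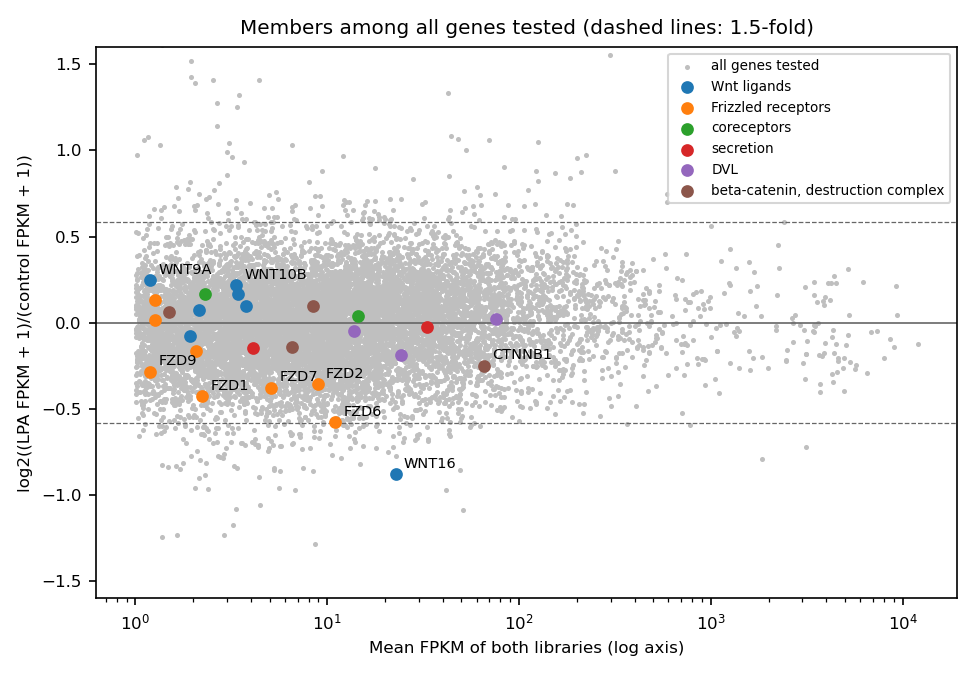
Log2 ratio, log2((LPA FPKM + 1)/(control FPKM + 1)), against mean FPKM on a log axis for the 11686 genes tested (grey) and the 26 members (coloured by role); 36 genes lie outside the vertical axis. WNT16 lies beyond the dashed 1.5-fold line, FZD6 just inside it, and the other members further inside.

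The receptor partners differed less. LRP5 had 14.2 FPKM in untreated cells and 14.6 FPKM with LPA, and LRP6 had 2.12 and 2.49 FPKM. LRP6 was thus higher while most Frizzled genes were lower, with a counting interval of 0.03 to 0.45. Of the secretion genes, WLS had 33.5 and 33.0 FPKM and PORCN 4.36 and 3.84 FPKM. Of the Dishevelled genes, DVL1 was the most abundant, with 75.2 and 76.4 FPKM, DVL2 had 25.9 and 22.7 FPKM and DVL3 14.1 and 13.6 FPKM. DVL1 held 65.3% of their sum in untreated cells and 67.8% with LPA. DVL2 was 12.6% lower, with a counting interval of -0.31 to -0.08.

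CTNNB1 had 71.1 FPKM in untreated cells and 59.7 FPKM with LPA, with a counting interval of the plain log2 ratio of -0.32 to -0.18. Of all genes tested, 15.9% had a lower log2 ratio than its -0.25, so the difference was common in size. Its 3 isoforms were at similar levels and each was lower: NM_001098210 had 27.3 and 21.0 FPKM, NM_001904 had 22.8 and 19.5 FPKM and NM_001098209 had 21.0 and 19.2 FPKM. Their deposited bounds overlap between the libraries. In the destruction complex, AXIN1 had 8.09 and 8.73 FPKM, GSK3B 6.89 and 6.16 FPKM and APC 1.45 and 1.56 FPKM. These 3 had log2 ratios of -0.14 to 0.10, with GSK3B the 1 lower gene. The counting interval of GSK3B was -0.31 to -0.01, and those of AXIN1 and APC include 0.

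The APC totals were alike but were assigned to different isoforms. In the control library NM_001127511 had 1.45 FPKM, with bounds of 1.00 to 1.90, and NM_000038 had 0.000383 FPKM. In the LPA library NM_000038 had 1.56 FPKM, with bounds of 1.08 to 2.03, and NM_001127511 was listed at 0. The bounds of both isoforms are separate between the libraries. APC was the 1 member of 11 with at least 2 isoforms whose leading isoform differed. Among all genes of that kind 13.2% had another leading isoform, and 2.52% had one with separate bounds for both isoforms. The isoforms share most of their length of 10730 and 10804 nt and differ mainly at the start, and in the 84 nt of exon 7 of NM_000038. In the GENCODE model the first exon of NM_001127511 is 361 nt, where about 8.76 fragments would fall in the control library. Exon 2 of NM_000038 has 153 nt that the other isoform lacks, where about 3.74 fragments would fall in the LPA library. The assignment of APC to 1 isoform thus rests on few fragments in each library.

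FZD6 also differed in its isoforms. NM_003506 had 11.3 FPKM (7.86 to 14.7) in the control and 5.23 FPKM (3.26 to 7.21) in the LPA library, with separate bounds, and its share of the gene was 84.2% and 60.5%. NM_001164616 had 0.906 FPKM (0 to 1.92) and 3.21 FPKM (1.62 to 4.80), with overlapping bounds. A further assembled isoform, spliced otherwise than its nearest transcript NM_001164616, went the other way, at 1.20 FPKM (0.0132 to 2.39) without and 0.210 FPKM (0 to 0.650) with LPA, or 8.96% and 2.43% of the gene, also with overlapping bounds. GENCODE places 115 nt of NM_003506 (103300085 to 103300199 on chromosome 8, in exon 2) outside NM_001164616, where about 21.7 and 9.47 fragments of NM_003506 would fall. Over all members, 2 of 32 isoforms with a mean of at least 1 FPKM had separate bounds, NM_057168 of WNT16 and NM_003506 of FZD6, both lower. Among all such isoforms 4.61% had separate bounds, 2.12% being lower. Counted in either direction, the share of members was therefore close to the background. For the lower direction alone, 2 isoforms are too few to set their share against 2.12%.

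In AXIN1, NM_003502 had 0.617 FPKM in untreated cells and 1.93 FPKM with LPA, or 7.62% and 22.0% of the gene. NM_181050, which lacks 108 coding nt of exon 9, had 7.47 and 6.81 FPKM and led in both. Bounds overlap for both isoforms. The WLS isoform NM_024911 led in both libraries with 26.5 and 25.8 FPKM. For PORCN, NM_022825 had 2.37 and 1.59 FPKM and NM_001282167 had 1.38 and 1.30 FPKM. The bounds of these PORCN isoforms overlap each other in both libraries, so they are not ordered.

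**Figure D4:**
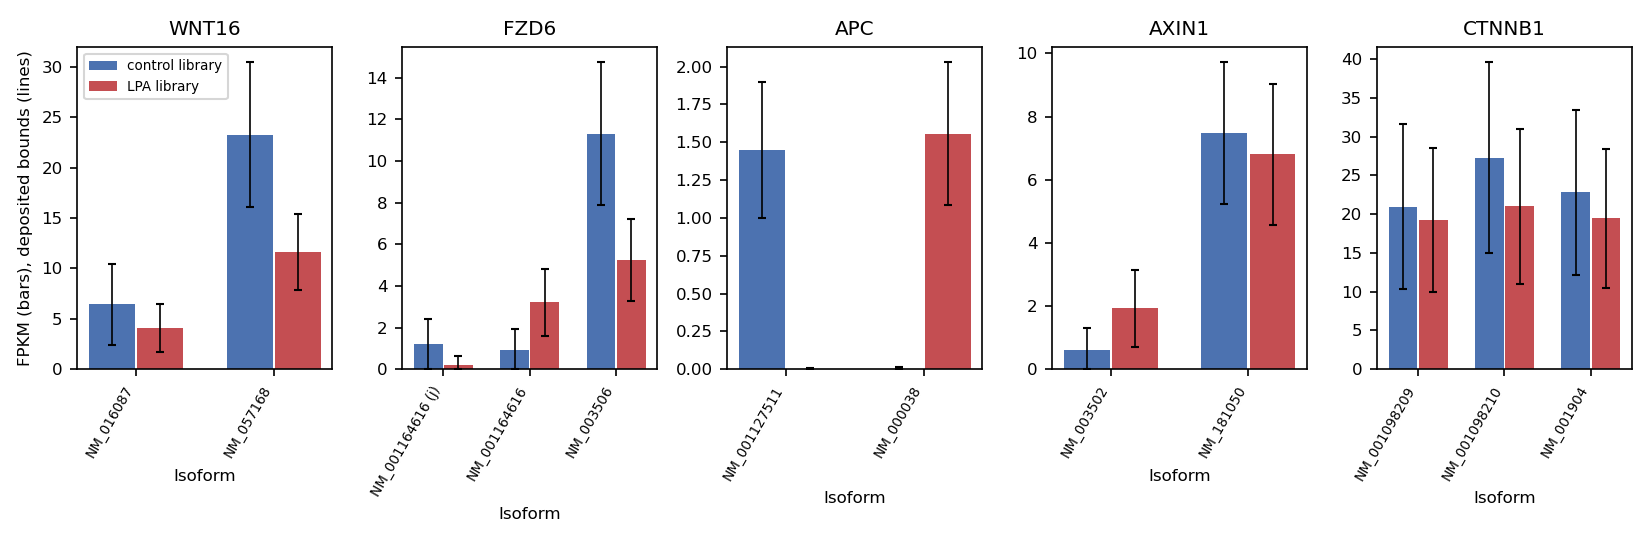
FPKM of the isoforms of 5 members that reach 0.2 FPKM in either library, with the deposited lower and upper bounds as lines; (j) marks an isoform spliced otherwise than its nearest RefSeq transcript. The leading APC isoform is NM_001127511 in the control library (1.45 FPKM) and NM_000038 in the LPA library (1.56 FPKM), and the bounds of NM_057168 of WNT16 and NM_003506 of FZD6 do not overlap.

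GC content moved with the log2 ratio over all genes, so it is given beside the members. For 11259 of the 11686 genes tested, and all 26 members, the leading isoform matched a GENCODE transcript. The genes were put in 5 bins of equal size by GC content. In the lowest bin, 31.8% to 41.8%, the median log2 ratio was -0.16 and 77.1% of genes were below 0. WNT16 (41.4% GC) and FZD6 (38.4%) are in that bin, where 0.222% and 3.11% of genes had a lower log2 ratio than theirs. FZD1 (47.7%) and FZD7 (52.8%) are in the middle bin, whose median was 0.08, and FZD2 (64.9%) and FZD9 (68.4%) in the highest, whose median was 0.03. In those bins 2.31% of genes lay below FZD1, 3.15% below FZD7 and 5.24% below FZD2. APC, LRP6 and FZD3, also in the lowest bin, had log2 ratios above 0. The part of GC content in the values of WNT16 and the Frizzled genes was not tested.

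**Figure D5:**
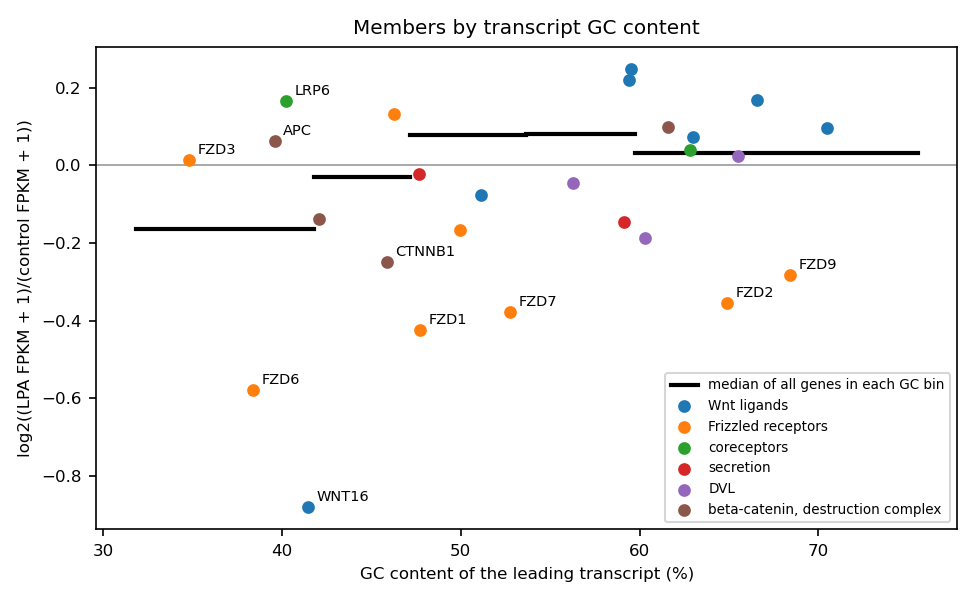
Log2 ratio of the 26 members against the GC content of their leading transcript in percent; black lines are the medians of all genes in each of 5 equal bins of GC content. The lowest bin has a median of -0.16, WNT16 and FZD6 lie below it, and FZD1, FZD2, FZD7 and FZD9 lie below medians that are above 0.

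The RefSeq promoter table (GRCh38.p14) held 37 promoters of 31 members, and the 250 bases before each start were searched on both strands. The TCF/LEF core, sought as ATCAAAG or TTCAAAG, and also as AACAAAG or as TACAAAG, was in none of them, and in 12.0% of all 35116 promoters. That says only that these letters are not in these windows. The GC box GGGCGG was in 28 of the 37 (75.7%) and in 42.6% of all promoters. No promoter was listed for FZD2, FZD3, FZD6, FZD7, FZD10, LRP6, WNT7B, WNT10B or WNT11. The windows of WNT16 and FZD1 are shown. WNT16 had the lowest log2 ratio of all members. FZD1 had the lowest of the FZD1, FZD2 and FZD7 subgroup and was its only gene with a listed promoter. The WNT16 window lies before the first exon of NM_057168, and none was listed for NM_016087. The windows are chr7:121328750-121328999 and chr7:91264183-91264432, both on the plus strand, with the GC box in capitals.
WNT16 promoter: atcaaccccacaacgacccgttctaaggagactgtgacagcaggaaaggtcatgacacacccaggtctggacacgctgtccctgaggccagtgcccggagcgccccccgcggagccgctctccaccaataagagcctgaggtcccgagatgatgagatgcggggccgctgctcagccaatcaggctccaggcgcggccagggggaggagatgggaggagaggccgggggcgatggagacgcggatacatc
FZD1 promoter: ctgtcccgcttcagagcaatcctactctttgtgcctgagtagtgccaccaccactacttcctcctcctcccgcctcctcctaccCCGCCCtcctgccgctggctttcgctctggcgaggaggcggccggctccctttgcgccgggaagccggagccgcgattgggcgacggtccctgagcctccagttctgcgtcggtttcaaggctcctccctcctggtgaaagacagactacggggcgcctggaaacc
The WNT16 window holds no GC box, and the FZD1 window holds 1, read on the minus strand, that begins 166 bases before the start. A match is a description of the letters and no evidence of binding.

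Other genes of the pathway differed less than WNT16. Of 81 further genes in 7 lists, 53 had a mean of at least 1 FPKM, and 22 of these were higher and 31 lower in the LPA library. None was 1.5-fold apart on the log2 ratio scale, and their median log2 ratio was -0.05. Among secreted antagonists, DKK1, which blocks LRP6, had 81.8 FPKM in untreated cells and 80.6 FPKM with LPA, and NOTUM, which removes the Wnt lipid, 5.76 FPKM in both. FRZB, also a secreted antagonist, had the highest log2 ratio of the 53 genes, 0.39, with 0.764 and 1.31 FPKM. Its plain log2 ratio was 0.78, with a counting interval of 0.16 to 1.44. FRZB rests on about 35 and 57 fragments and was named after its values were seen. Among the ubiquitin ligases that remove Frizzled proteins from the cell surface, RNF43 had 14.5 and 14.5 FPKM and ZNRF3 2.69 and 2.26 FPKM. KREMEN1 and KREMEN2, which act with DKK proteins, had 7.40 and 6.25 FPKM and 7.41 and 9.13 FPKM. Of the alternative receptors and polarity genes 7 of 10 were lower, with PTK7 at 34.9 and 33.3 FPKM and RYK at 19.9 and 18.3 FPKM.

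Other cytoplasmic regulators were split, 7 higher and 7 lower. The most abundant were the phosphatase gene PPP2CA, with 68.3 and 70.5 FPKM, and GSK3A, with 59.4 and 52.8 FPKM. CTNNBIP1, an inhibitor of beta-catenin binding to TCF factors, had the lowest log2 ratio of the 53 genes, -0.49, with 13.7 and 9.41 FPKM, and was named after its values were seen. Of the nuclear partners of beta-catenin 4 of 12 were higher. The corepressor gene CTBP1 had 70.2 and 71.3 FPKM, and TCF7L2, the main TCF factor of the colon, 45.4 and 35.8 FPKM. Known beta-catenin targets in colon were split, 7 of 15 higher, with a median of -0.02. MYC had 158 and 143 FPKM and CD44 76.6 and 88.0 FPKM.

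The libraries themselves were similar in their totals, with summed FPKM of 718801 and 709125 and 11690 and 11640 genes at 1 FPKM or more. Of 12 markers of the colorectal epithelium 8 had a mean of at least 1 FPKM, among them EPCAM with 220 and 223 FPKM, while VIL1 and CDX1 were listed at 0. Of 9 fibroblast, 8 immune and 5 endothelial markers, 1, 1 and 0 reached that level. Summed marker FPKM in untreated cells and LPA libraries were 5.80 and 4.34 for fibroblast, 3.21 and 3.48 for immune and 0.105 and 0.148 for endothelial markers. The fibroblast sum was nearly all COL1A1, a collagen chain, at 5.75 FPKM without and 4.28 FPKM with LPA (log2 ratio -0.35), and the immune sum was mostly CD68, a lysosomal protein abundant in macrophages, with 2.64 and 2.85 FPKM. COL1A2 and PTPRC, defining markers of fibroblasts and leukocytes, were listed at 0 in both libraries. The part of other cell types in the member values was not tested.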

How the data were processed

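Poly-A RNA libraries were made with the TruSeq V2 kit, per the labels' protocols. Per the submitters' processing notes, reads were handled with Cuffdiff 2.2.0, Cufflinks, TopHat2 2.0.12 and bcl2fastq 2.16.0.10, on hg38. Their settings and the way libraries were scaled are not stated. The deposited units are FPKM per isoform with lower and upper bounds, per the file headers. The members and gene lists were chosen with earlier results of these data known.

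FPKM were summed per gene symbol with Python 3.11.15, pandas 2.3.3 and scipy 1.17.1. In the LPA library 27 isoforms had a status other than OK and were treated as missing, none of them a member's. Genes with a mean of at least 1 FPKM were compared as log2((LPA FPKM + 1)/(control FPKM + 1)), with limits of 2-fold and 1.5-fold. Fragments were estimated from the lowest cluster of FPKM multiplied by kilobases among genes with 1 isoform over 2000 nt, 0.0598 (control) and 0.0636 (LPA). Corrections for bias or for reads that map to several places, if the authors used any, could move these estimates. The functions were tested on simulated data. Every member with a mean of at least 1 FPKM is named, as are the 2 most abundant genes of each other list and any gene 1.5-fold apart. The lists were fixed together with the comparisons. Deposited loci are given with 1-based starts. Groups came from the sample titles, and every column of sample values was used. Alternative settings covered the pseudocount, the filter, the scaling, isoform handling and status. Figures were drawn with matplotlib 3.10.9. GENCODE release 29 (GRCh38) gave exons, GC content and coding sequence. No library was left out.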

Additional observations from a re-analysis of the deposited data

How the results depend on the processing

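No paired analysis was possible because each group has 1 library, and both titles carry the number 3. No replicate could be left out. Under 10 alternative settings (pseudocount, filter, scaling, leading isoform, isoform class, isoform length and status) no member was at least 2-fold apart. The count at least 1.5-fold apart was 3 with a pseudocount of 0.1, namely WNT16, FZD6 and FZD1, and 2 when the leading isoform was taken for its gene, and 1 under the other 8 settings. WNT16 stayed between -0.94 and -0.75 on the log2 scale. Member isoforms with separate bounds numbered 4 with no filter on low values, the APC pair being added, and 2 under both other settings run for it, a mean of at least 5 FPKM and a 1.5-fold limit added to the bounds. The median log2 ratio of the members was -0.16 with a mean of at least 5 FPKM and between -0.08 and -0.02 under the other 9 settings. Of 245 member values under alternatives, 242 kept their sign; AXIN1 (-0.12) and FZD3 (-0.07) turned negative with the leading isoform and WLS (0.15) turned positive without isoforms of class j. No alternative shifted the median of all genes by more than 0.1. When leading isoforms of at least 5 FPKM were required, a setting chosen after seeing the data, 0 members had another leading isoform. Low members are limited by depth, since WNT9A rests on about 21 and 27 fragments.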

Other observations

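Of the 12 ligand genes under 1 FPKM, WNT11 had 0.925 FPKM in untreated cells and 0.756 FPKM with LPA, and WNT10A had 0.777 and 0.493 FPKM. WNT4 was at 0.415 and 0.339 FPKM, WNT2B at 0.304 and 0.329 FPKM, WNT7A at 0.300 and 0.275 FPKM, WNT5B at 0.247 and 0.191 FPKM and WNT8B at 0.162 and 0.0743 FPKM. WNT2 was at 0 and 0.0227 FPKM. WNT1, WNT5A, WNT8A and WNT9B were at 0 in either library by the table, where a listed 0 can also be a failed estimate. An ST7L exon on the opposite strand overlaps WNT2B by 2594 nt, and ST7L had 1.90 and 1.61 FPKM, so the WNT2B value is uncertain.

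Several Wnt genes lie beside each other, and the neighbours differed in level. On chromosome 2, WNT6 (3.61 and 3.94 FPKM) and WNT10A (0.777 and 0.493 FPKM) have loci 6.30 kb apart. On chromosome 12, WNT10B (3.03 and 3.69 FPKM) is 6.59 kb from WNT1, which was listed at 0. On chromosome 17, WNT3 (2.0 and 1.84 FPKM) is 32.8 kb from WNT9B, also listed at 0. On chromosome 1, WNT9A (1.00 and 1.38 FPKM) and WNT3A (3.16 and 3.67 FPKM) are 59.0 kb apart, and both were higher in the LPA library by less than counting error.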
